A study of Mus musculus with 6 samples.

Results

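The HPC1 library holds single cells sorted as haematopoietic progenitors of the HPC1 class through a CD201+CD48- gate and a CD48+ gate. Its members are all cells whose column carries the prefix of that library, 82 of the 497 cells in the 6 libraries of the study. The cells came from C57BL/6 mice of 8 to 10 weeks, and this library is labelled spleen and polyA RNA. No treatment or engineered allele is named in the labels for any library. The HSC1 library has the same gates, age range, tissue label and RNA type for stem cells of the HSC1 class (84 cells). The double-negative library holds CD201-CD48- cells of both classes (76 cells), and the MPP2-containing library mixes MPP2, the CD201-CD48- gate of HPC1 and the CD48+ gates of both classes (80 cells). Both are labelled bone marrow, polyA RNA and 8 to 10 weeks. The HSC2/MPP4 library combines CD48+ HSC2 with MPP4 (89 cells), and the CD48- HSC2 library combines CD201+ with CD201- cells (86 cells). Both are labelled bone marrow, total RNA and 8 weeks. CD48+ HPC1 thus also occurs in the MPP2-containing library. CD201-CD48- HPC1, a gate that the HPC1 library lacks, occurs in the double-negative and the MPP2-containing library. The labels do not say how many mice gave each library, and the column names do not tell the gates of a library apart. There is 1 library per group, so every comparison is between 2 libraries and none was tested. Against HSC1, which shares these labels and gates, cell class and library cannot be told apart. Against the double-negative and the MPP2-containing library, tissue label, gate and library cannot be told apart. Against the HSC2/MPP4 and the CD48- HSC2 library, RNA type and age range differ as well and cannot be told apart from them.

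Haematopoietic progenitors near the stem cell can already carry RNA of a later lineage, and the megakaryocyte lineage, which forms platelets, is the one most often seen in stem-like cells of the mouse. Megakaryocytes make surface receptors for von Willebrand factor and fibrinogen, and load granules with chemokines and clotting proteins. CD201 is the endothelial protein C receptor, encoded by Procr, and marks stem cells. CD48 is a surface protein of the SLAM family that is found on more committed progenitors.

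The promoters of Pf4 and of 4 platelet receptor genes described below are shown for reference, each as the 250 bases before the annotated start (RefSeq, GRCm38.p6, 5′ to 3′ along the gene's strand). Capitals mark GATAA, the core letters bound by GATA factors, and GGAAG, core letters of ETS factors such as FLI1, on either strand (TTATC and CTTCC on the other). Pf4 lies on the plus strand (chr5:90772185-90772434), Gp9 on the plus strand (chr6:87777820-87778069), Gp1bb on the minus strand (chr16:18622404-18622653), Gp5 on the minus strand (chr16:30310782-30311031) and Itga2b on the minus strand (chr11:102469884-102470133). The Gp9 window lies inside the annotated span of that gene (chr6:87776131-87779786), not before its first base.
Pf4: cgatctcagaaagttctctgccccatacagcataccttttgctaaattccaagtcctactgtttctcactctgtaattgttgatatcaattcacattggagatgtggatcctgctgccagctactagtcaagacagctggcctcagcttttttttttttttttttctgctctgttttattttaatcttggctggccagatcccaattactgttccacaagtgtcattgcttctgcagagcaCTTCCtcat
Gp9: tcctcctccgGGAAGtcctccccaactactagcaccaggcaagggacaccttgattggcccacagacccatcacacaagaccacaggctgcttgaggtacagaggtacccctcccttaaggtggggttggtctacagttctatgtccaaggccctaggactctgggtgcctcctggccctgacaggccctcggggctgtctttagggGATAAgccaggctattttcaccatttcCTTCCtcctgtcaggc
Gp1bb: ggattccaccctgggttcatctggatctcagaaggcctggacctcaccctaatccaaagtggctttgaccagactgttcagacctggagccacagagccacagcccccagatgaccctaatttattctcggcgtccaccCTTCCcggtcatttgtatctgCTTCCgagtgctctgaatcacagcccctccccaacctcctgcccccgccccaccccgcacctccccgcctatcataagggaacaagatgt
Gp5: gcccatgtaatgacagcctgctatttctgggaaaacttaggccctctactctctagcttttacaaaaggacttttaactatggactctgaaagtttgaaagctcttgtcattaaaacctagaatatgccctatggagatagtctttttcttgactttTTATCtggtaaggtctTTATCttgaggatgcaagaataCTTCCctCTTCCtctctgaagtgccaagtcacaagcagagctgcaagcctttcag
Itga2b: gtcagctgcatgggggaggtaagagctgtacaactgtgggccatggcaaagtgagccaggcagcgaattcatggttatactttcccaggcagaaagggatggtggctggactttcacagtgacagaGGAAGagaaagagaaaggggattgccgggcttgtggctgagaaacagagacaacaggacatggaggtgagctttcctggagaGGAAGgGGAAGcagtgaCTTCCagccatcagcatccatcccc
GGAAG occurred in each of the 5 windows, 1 time in Pf4, 2 times in Gp9, Gp1bb and Gp5 and 4 times in Itga2b. It also occurred in 64.1% of all 32851 RefSeq windows of this length. GATAA occurred 1 time in Gp9 and 2 times in Gp5, and in 22.6% of all windows. These matches describe the letters only.

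Many platelet genes were higher in HPC1 than in the other libraries, by amounts that depended on the role of the gene and on the library set beside it. A level pools the counts of all cells in a library and is given per 1000000 of their total (CPM), ratios are log2 of (CPM + 10), and a gene is called at a 2-fold ratio. Of 52 measured megakaryocyte and platelet genes, 23 were at least 2-fold higher than in HSC1, where 1.94% of all 12239 genes were. The number was 13 against the double-negative library (2.05% of all genes) and 9 against the MPP2-containing library (1.59%). It was 36 against HSC2/MPP4 (3.82%) and 27 against CD48- HSC2 (3.56%). No listed gene was at least 2-fold lower than in HSC1 (2.11% of all genes), the double-negative (1.35%) or the MPP2-containing library (0.858%). F13a1, which encodes a chain of coagulation factor XIII, was lower than in HSC2/MPP4 (3.31% of all genes). Thbs1, which encodes a thrombospondin, was lower than in CD48- HSC2 (4.53%). The same shares of all genes, higher and lower, stand beside the counts of every list below. Median log2 ratios of the list were 0.74, 0.46, 0.53, 1.49 and 1.04 in the same order of libraries, beside medians of 0.00, 0.00, 0.00, 0.02 and -0.01 for all genes. Per cell, the list took between 0.353% and 3.10% of counts in HPC1 (median 0.680%) and between 0.134% and 0.948% in HSC1 (median 0.440%).

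**Figure D1:**
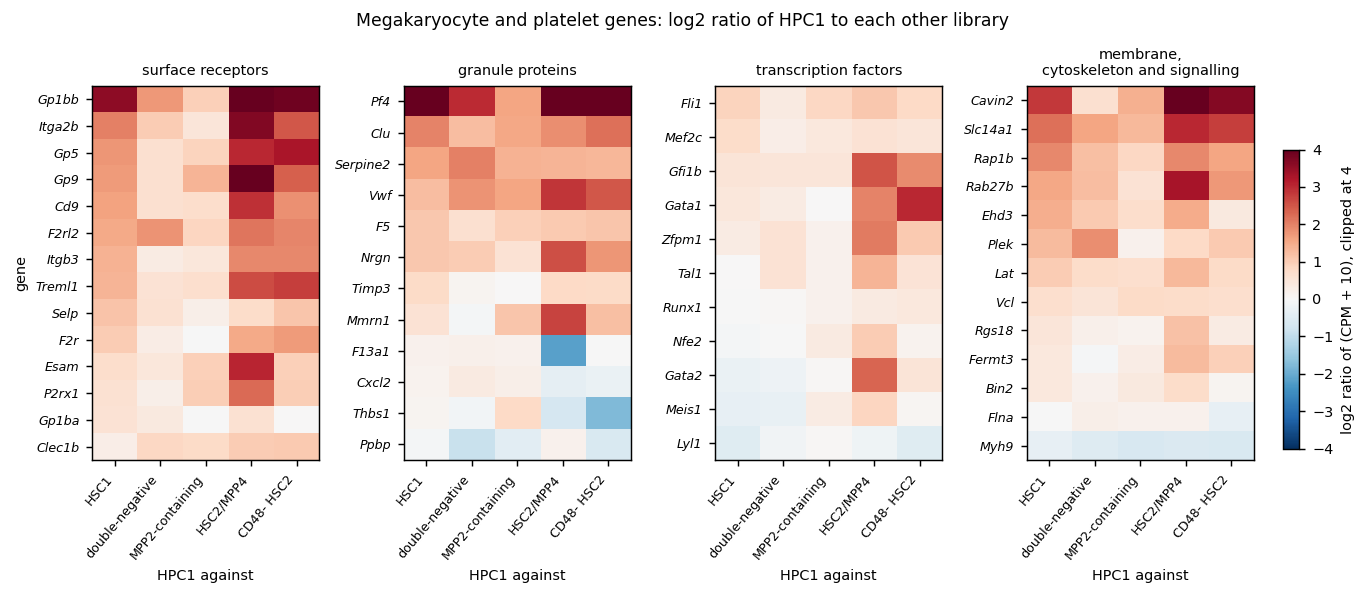
Log2 ratio of HPC1 to each of the 5 other libraries (columns) for 50 of the 52 measured megakaryocyte and platelet genes (rows), in 4 panels by role; red is higher in HPC1, and colour is clipped at 4. Receptor, granule and membrane genes such as Gp1bb, Pf4 and Cavin2 are red in all columns, and most transcription factors are near white against HSC1.

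The granule chemokine Pf4 (platelet factor 4) had the largest ratio of the listed platelet genes against each library. It was at 2709 CPM in HPC1 (95% Poisson interval 2679 to 2739.7, counting error only), 103 in HSC1, 332 in the double-negative, 895 in the MPP2-containing, 11.7 in HSC2/MPP4 and 69.5 in the CD48- HSC2 library. The log2 ratios were 4.59, 2.99, 1.59, 6.97 and 5.10. Per cell, Pf4 ran from 182 to 15934 CPM in HPC1 with a median of 637, and the median cell of HSC1 had 35.3. Every HPC1 cell held at least 14 counts of Pf4. S100a8, a neutrophil gene, and Hbb-bs, a globin gene of red cells, were likewise counted in all 82 HPC1 cells, at no less than 278 and 133 CPM. In HSC1, which had a lower median depth (63092 counts per cell against 112832), the 3 genes were counted in 69, 70 and 67 of 84 cells. In the double-negative library they were counted in 70, 68 and 66 of 76 cells. In the deeper MPP2-containing library, Pf4 and S100a8 were likewise counted in all 80 cells, and Hbb-bs in 72. Genes counted in every cell numbered 201 in HPC1, 36 in HSC1, 160 in the double-negative, 374 in the MPP2-containing, 6 in HSC2/MPP4 and 0 in the CD48- HSC2 library, without thinning, and the part of RNA from outside the cell in the Pf4 level was not tested.

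Other granule genes were lower in level. Vwf, the ligand of the platelet receptor GPIb, was at 64.3 CPM against 21.6 in HSC1 and 11.1 in the double-negative library, with the MPP2-containing library between them, and at 0.255 and 3.24 in the 2 HSC2 libraries. Its log2 ratios ran from 1.23 to 2.86. Serpine2, a protease inhibitor, was at 35.1 CPM in HPC1 and between 1.01 and 7.92 in the others. This level rested largely on the 8 HPC1 cells highest in Pf4, which are described below. Serpine2 had 157 CPM pooled over those 8 cells, 17.0 over the next 33 and 13.1 over the 41 cells lowest in Pf4. Clu, which encodes clusterin, was at 44.5 CPM in HPC1 and between 1.80 and 13.2 in the others. These 4 granule genes and Slc14a1, a urea transporter (223 CPM, against 18.6 to 85.5), were the 5 members at least 2-fold higher than in each other library. Of all genes, 0.172% were. By contrast, Ppbp, another platelet chemokine, had 1.22 CPM in HPC1 and 10.7 in the double-negative library.

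The receptor genes differed most from HSC1 and the HSC2 libraries. Of 15 measured receptors, 10 were at least 2-fold higher than in HSC1, 3 than in the double-negative, 2 than in the MPP2-containing library, 13 than in HSC2/MPP4 and 11 than in CD48- HSC2. In the same order, 1.94%, 2.05%, 1.59%, 3.82% and 3.56% of all genes were. Itga2b, the CD41 chain of the fibrinogen receptor, had 255 CPM in HPC1, 55.5 in HSC1, 122 in the double-negative, 179 in the MPP2-containing, 10.4 in HSC2/MPP4 and 37.1 in the CD48- HSC2 library. After thinning each cell to 10000 counts it was found in 66.7% of HPC1 cells, 54.7% of double-negative and 52.5% of MPP2-containing cells. Gp1bb, a chain of GPIb, had 175 CPM against 5.55 in HSC1 and 85.8 in the MPP2-containing library, and no count in HSC2/MPP4 (a count of 0 there allows up to 0.765 CPM). Gp9, which belongs to the same complex, had 277 CPM against 78.9 in HSC1 and 175 in the double-negative library. Gp5 had 95.4 CPM against 20.6 and 58.0.

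Of the 12 transcription factors none was past 2-fold against HSC1, the double-negative or the MPP2-containing library. Of all genes, 1.94%, 2.05% and 1.59% were higher in these comparisons and 2.11%, 1.35% and 0.858% lower. A count of 0 of 12 lies near those shares. Fli1 had 177 CPM in HPC1 and 90.1 in HSC1 (log2 0.90), and Gata1 had 78.4 and 55.3 (0.44). Gata2 had 197 and 240.2 (-0.28). Against HSC2/MPP4, 8 of the 12 were higher, among them Gata1 (12.5 CPM there). Among the 13 membrane, cytoskeleton and signalling genes, 7 were at least 2-fold higher than in HSC1. Cavin2, a caveolar coat protein, had 154 CPM against 12.9 in HSC1, 95.9 in the double-negative and 50.7 in the MPP2-containing library. The small GTPase Rap1b, which acts in integrin activation, had 325 CPM against 78.1, 136 and 177. Of 17 thrombopoietin signalling genes, 1 was higher and none lower than in HSC1 (1.94% and 2.11% of all genes). Against the MPP2-containing library 2 were higher and 1 was lower (1.59% and 0.858% of all genes). Socs2, 1 of the 2 higher, was at 46.1 CPM in HPC1 and 16.4 there. Against HSC2/MPP4 the numbers were likewise 2 and 1 (3.82% and 3.31% of all genes). Against CD48- HSC2 none was higher and 2 were lower (3.56% and 4.53%).

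**Figure D2:**
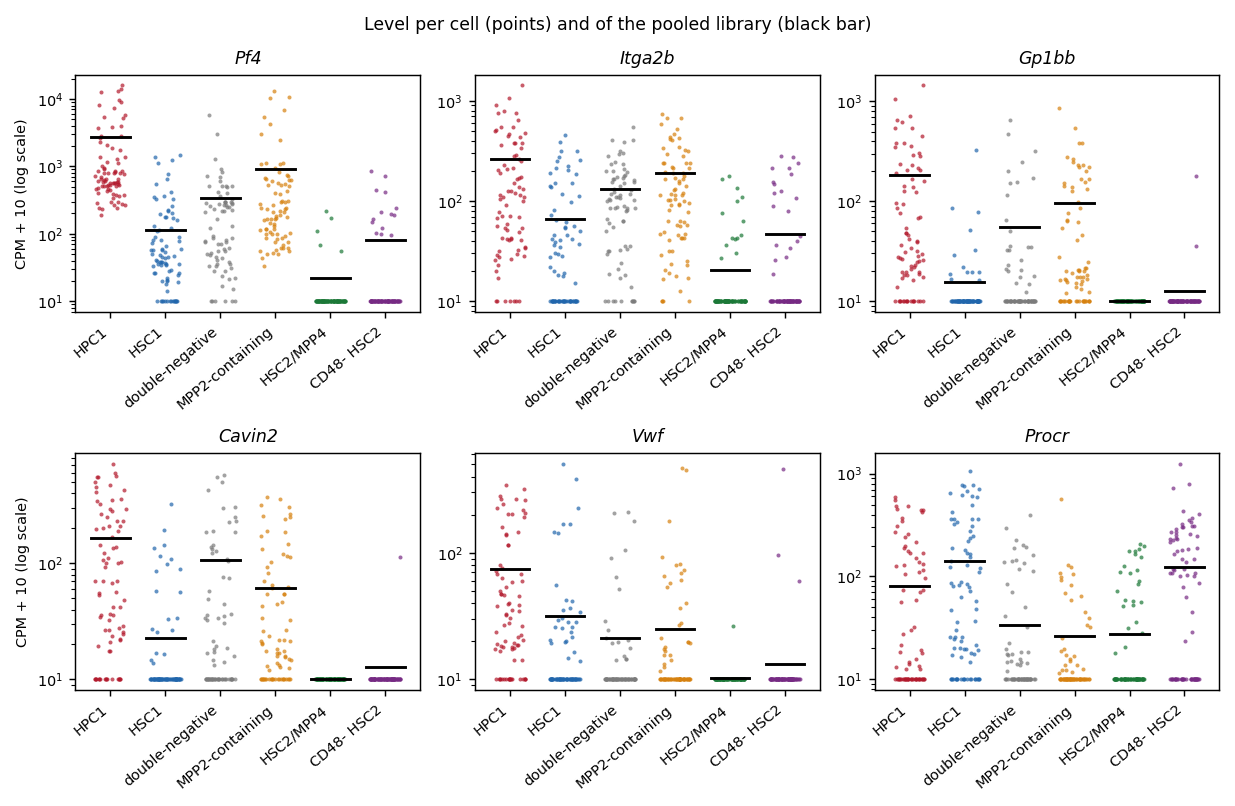
Level of 6 marker genes per cell (points, CPM + 10 on a log axis, jittered within a library) and of the pooled library (black bars) in the 6 libraries. The lowest HPC1 cell has 182 CPM of Pf4, while Procr is spread from 0 to 589 CPM in HPC1.

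The pooled Pf4 level rested largely on a few cells. The 8 HPC1 cells highest in Pf4, a number chosen after seeing the values, ran from 7358 to 15934 CPM, and the next cell had 5867. They held 66.1% of the Pf4 counts of the library and 14.4% of all its counts. The MPP2-containing library had 3 cells at or above 7358 CPM and the other 4 libraries had none. Without its own 8 highest cells, HPC1 had 1074 CPM of Pf4, HSC1 had 58.7, the double-negative 140.1 and the MPP2-containing library 244. Without those 8 HPC1 cells, the platelet genes at least 2-fold higher numbered 16 against HSC1, 7 against the double-negative, 8 against the MPP2-containing, 32 against HSC2/MPP4 and 23 against the CD48- HSC2 library. The median log2 ratios of all genes were then 0.00, 0.00, 0.01, 0.03 and 0.00 in the same order. The shares of all genes given above were taken with the 8 cells included.

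The 8 cells were chosen by Pf4 alone, and several other platelet genes were high in them. Itga2b ran from 368 to 1421 CPM in them and had a median of 60.5 in the 41 cells lowest in Pf4. Vwf had 164 CPM pooled over the 8 cells and 37.4 over the 41. Gp1bb had 556 and 83.7, and Plek, a protein kinase C substrate of platelets, had 353 and 40.2. Gp9 had 319 and 259. Procr went the other way: 3 of the 8 cells had a count, the highest at 4.78 CPM, and the pooled level was 2.42 CPM against 101 in the 41 cells. Low Procr was not particular to the 8 cells, since 25 of the 41 had a count of it. All 8 cells stood among the later columns of the library. There, cells low in Pf4, such as those with 231.44 and 256.64 CPM, also had Procr at or near 0. What sets these columns apart was not tested. Hlf and Mecom, transcription factors of stem cells, had 9.69 and 23.0 CPM in the 8 cells and 169 and 128 in the 41. Kit, the stem cell factor receptor, had 30.3 and 173. The 8 cells had total counts of 23932 to 418628 (median 183072).

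**Figure D3:**
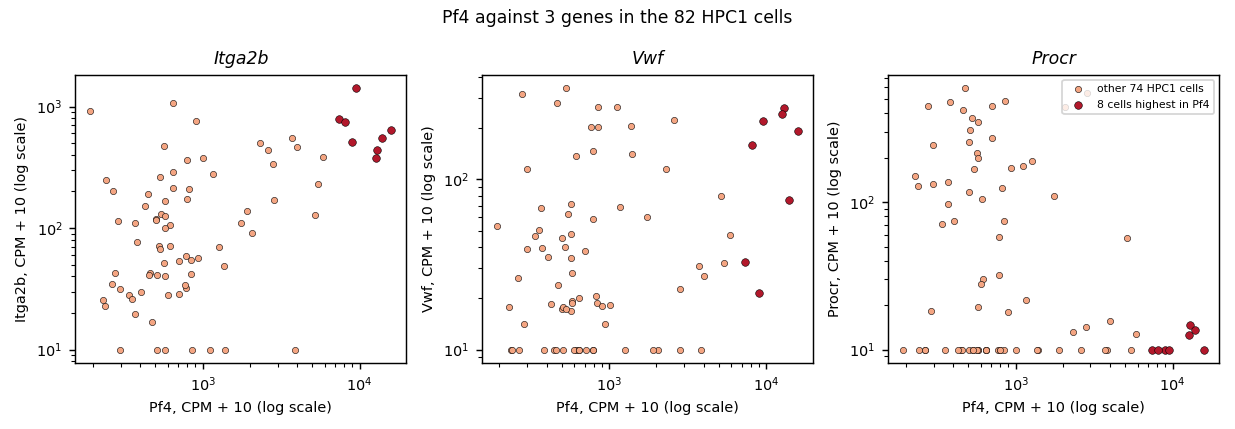
Pf4 (horizontal) against Itga2b, Vwf and Procr (vertical) in the 82 HPC1 cells, both as CPM + 10 on log axes; dark points are the 8 cells highest in Pf4. The dark points lie high in Itga2b, between 368 and 1421 CPM, and at or near 0 in Procr, at 4.78 CPM or less.

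Across all 82 cells the rank correlation with Pf4 was highest for Banf1, a chromatin-binding protein (Spearman 0.49), and next for Itga2b (0.46), Sla and Rap1b (both 0.44). Slc14a1 (0.42), Cavin2 (0.41) and Cd9 (0.36) followed, and the mitotic kinase Cdk1 had 0.39. The lowest were Cd63 and S100a11 (both -0.44), Psme1 (-0.43), Ccnd2 (-0.42) and Capg (-0.41). These are descriptions of cells of 1 library over 1449 genes, of which the central 90% ran from -0.23 to 0.27, and Pf4 against the total count of a cell gave -0.18.

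The genes of the gates showed a mixed population. Procr had 71.6 CPM in HPC1, 133 in HSC1, 23.9 in the double-negative, 16.4 in the MPP2-containing, 17.8 in HSC2/MPP4 and 115 in the CD48- HSC2 library. Cd48 had 33.9 CPM in HPC1, 81.4 in HSC1, 1.62 in the double-negative and 122 in the MPP2-containing library. Of the 82 cells, 26 had counts of Procr only, 15 of Cd48 only, 22 of both and 19 of neither. After thinning to 10000 counts, the numbers among 81 cells were 29, 15, 2 and 35, so the cells with both depended on depth. Of 9 measured genes for surface proteins used in sorting, 1 was at least 2-fold higher than in HSC1 (Itga2b) and 4 were lower (Cd34, Cd48, Flt3 and Ly6a). Cd34, a progenitor surface protein, had a lower level than in each other library (83.4 CPM against 151 to 587), as was Flt3, a cytokine receptor of lymphoid-competent progenitors (5.84 against 32.4 in HSC1 and 286 in HSC2/MPP4).

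Stem cell genes depended on the comparison. Of 29 measured genes, 2 were at least 2-fold higher and 2 lower than in HSC1, and 12 were higher and none lower than in the MPP2-containing library. Against CD48- HSC2, 6 were higher and 7 lower. Mecom had 86.2 CPM here, 134 in HSC1, 46.1 in the library with MPP2 and 223 in the CD48- HSC2 library. Hlf had 132 CPM against 269, 79.9 and 399. Ly6a, the Sca-1 gene, had 191 CPM against 449.9 in HSC1 and 672 in CD48- HSC2. Sult1a1, a sulfotransferase, had 168 CPM against 142 in HSC1 and 35.2, 20.8, 0.51 and 11.5 in the others.

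Lymphoid genes were low in HPC1. Of 15 measured genes none was at least 2-fold higher than in any of the 5 libraries, and 6 were lower than in HSC1, 0 than in the double-negative, 4 than in the MPP2-containing, 10 than in HSC2/MPP4 and 9 than in the CD48- HSC2 library. Dntt, the terminal transferase of early lymphocytes, had 1 count in 1 HPC1 cell, and 555 CPM in HSC2/MPP4. Of 20 granulocyte-monocyte genes, 2 were higher and 2 lower than in HSC1, 5 higher and 0 lower than in the double-negative, 0 and 4 than in the MPP2-containing, 0 and 13 than in HSC2/MPP4, and 4 and 5 than in the CD48- HSC2 library. Single cells carried much of this list: 1 cell held 45.2% of its counts in HSC2/MPP4, 23.2% in the MPP2-containing library and 21.4% in HPC1, and the median cells had 3887, 2309 and 2012 CPM. Mpo, myeloperoxidase, had 48.2 CPM in HPC1, 48.4 in HSC1, 14.8 in the double-negative, 515 in the MPP2-containing and 3368 in the HSC2/MPP4 library. Plac8, which is also listed there, had 198 CPM against 403 to 1946 in the others.

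**Figure D4:**
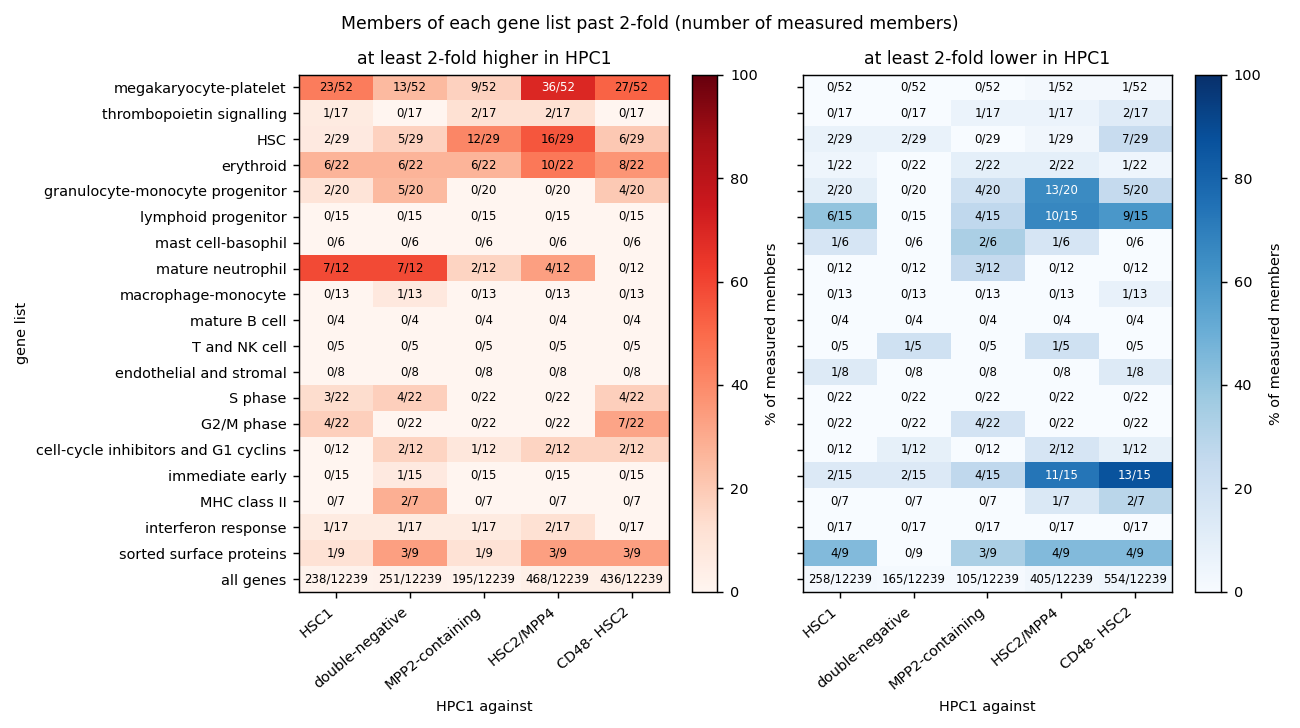
Number of members at least 2-fold higher (left) and lower (right) in HPC1 than in each other library (columns) for 19 gene lists and all genes (rows), with the number measured after the slash; colour is the share of measured members. The platelet row holds 23 of 52 against HSC1, and the immediate early row holds 13 of 15 lower than in CD48- HSC2.

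The summed proliferation genes of HPC1 lay within the range of the other libraries. The 22 measured G2/M genes summed to 2595 CPM in HPC1, 1492 in HSC1, 2134 in the double-negative, 4417 in the MPP2-containing, 2704 in HSC2/MPP4 and 1569 in the CD48- HSC2 library. In the same order, 3 cells held 35.2%, 56.7%, 66.0%, 16.9%, 31.2% and 79.0% of these sums. The median cells had 565, 402, 331, 1607, 303 and 107 CPM, so HPC1 was below HSC2/MPP4 in the sum and above it at the median cell. Of the 22 genes, 4 were at least 2-fold higher than in HSC1 and 4 lower than in the MPP2-containing library. Mki67, the proliferation antigen, had 199 CPM in HPC1, 85.2 in HSC1 and 300.4 in the library with MPP2. The S phase list had 3 of 22 genes higher than in HSC1 and none lower than in any library. Of 12 cell-cycle inhibitors and cyclins of the early cycle, none was past 2-fold against HSC1. None of 7 MHC class II genes and 1 of 17 interferon response genes, Ifit3, was higher than in HSC1, and none of either list was lower. Of all genes, 1.94% were higher and 2.11% lower than in HSC1. The counts of the inhibitor and cyclin, MHC class II and interferon lists lie near those shares. The MHC class II list differed by library: 2 genes were higher than in the double-negative library. In the same list, 1 gene was lower than in HSC2/MPP4 and 2 were lower than in CD48- HSC2. The immediate early genes, which are switched on quickly by signals and also by handling of cells, were mostly lower in HPC1 than in the MPP2-containing and the HSC2 libraries, with median log2 ratios of -0.90, -1.74 and -2.22 beside -0.15 against HSC1 and -0.25 against the double-negative library. Of 15, the number at least 2-fold lower was 2 against HSC1, 2 against the double-negative, 4 against the MPP2-containing, 11 against HSC2/MPP4 and 13 against CD48- HSC2. Nr4a1, a nuclear receptor, was at least 2-fold higher than in the double-negative library (28.9 against 7.69 CPM), the 1 such call of the list. Fos had 249 CPM in HPC1 against 344, 311, 1052, 1591 and 2212.

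Neutrophil and erythroid markers were concentrated in single HPC1 cells, and neutrophil genes were also above the HSC1 level in the other HPC1 cells. The 12 neutrophil genes summed to 4719 CPM, of which 1 cell held 74.4%, and to 1198 CPM without the neutrophil-rich and haemoglobin-rich cells; the sum of HSC1, which had no such cells, was 318. The lowest HPC1 cell had 431 CPM and the median cell 1147, where the median HSC1 cell had 57.8. The erythroid list summed to 6446 CPM and to 3232 without those cells, against 2893 in HSC1. The 10 most variable genes among cells were all neutrophil or globin genes, led by Ngp, Camp, Lcn2, S100a9, Hba-a2 and Chil3. In 1 cell lay 90.2% of the counts of Ngp, 83.3% of Camp, 88.8% of Lcn2, 75.1% of Hba-a2 and 92.3% of Chil3, and 8 cells held 81.4% of those of S100a9. In HPC1, 3 cells were neutrophil-rich and 3 haemoglobin-rich (1% or more of a cell's counts). Without them the platelet genes at least 2-fold higher than in HSC1 numbered 22. The mature B cell list summed to 60.1 CPM in HPC1 and 61.8 to 87.4 in the others, and the T and NK cell list to 7.58 and 23.3 to 70.1. The mast cell-basophil list summed to 4.36 CPM against 10.4 to 62.4. The endothelial and stromal list summed to 86.4 CPM against 66.8 to 137, and the macrophage-monocyte list to 139.7 against 86.8 to 249. The part of such RNA in the platelet gene levels was not tested.

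In all, 21 genes were at least 2-fold higher in HPC1 than in each other library (0.172% of all genes), and none was lower than in each (0%). Beside the platelet genes they included Bex4 (117 CPM against 6.63 to 46.9) and Ica1 (83.2 against at most 35.7). They also included Rhd, a red cell surface protein, which had 91.4% of its counts in 1 cell. The lower genes nearest to a 2-fold ratio in all comparisons were Plac8 (log2 -0.99 or below in each) and Atg12, an autophagy protein (-0.92 or below). Among the other 13 of the 15 lowest were Ramp1, a receptor activity-modifying protein (167 CPM against 314 to 830), Selplg, the P-selectin ligand (72.5 against 133 to 249), and Vim, vimentin (97.8 against 159 to 306).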

How the data were processed

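Single cells were sequenced by a modified Smart-seq2 method with enrichment of 3' ends, per the labels' protocols. The submitters' processing notes list TopHat, HTSeq and mm10. Not given in the sources used here are versions, cell filters and doublet handling. The deposited values are scores: each gene was centred to 0 and scaled to an SD of 1 across the 497 cells, with a ceiling of 10 that 0.0762% of values reach. The 2 later tables have no gene names and were tied to the named table by line order after 6 blank lines were dropped, which the joint scaling bears out.

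Counts were recovered from the scores, since the scores of cells lacking a gene fall on 1 plane, given by an intercept and 2 removed covariates. Of 13278 genes, 12239 were recovered, 144 lacked such a plane and 895 were detected in too few cells. All 2005424 recovered values up to 50 were whole within 0.01, which is the check on the data themselves; the settings of the procedure were chosen while working on these data. It was also tested on 3 sets of simulated counts. With the spread of each gene set from its real share of cells without it (64.6% of values at 0), 12024 of 12208 genes and all 497 cell totals were recovered exactly. For HPC1 over HSC1, genes drawn with 2-fold and 4-fold changes (100 each) had recovered medians of log2 0.82 and 1.77, equal to those drawn, and 28 and 91 of them were called. With 1 larger spread for all genes it also worked, and with 1 smaller spread (50.0% of values at 0), the first simulation tried, it recovered nothing: the covariates could not be found. The simulations follow the model that the recovery assumes, so they check the computation, not the model.

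Recovered genes held 54.5 to 83.5% of a cell's counts (median 64.1%), and levels are per 1000000 of all its counts. HPC1 cells had 3648 to 461611 counts (median 112832), and median cells of the other libraries had 23540 to 145496. The labels do not state molecular identifiers, so intervals and limits cover counting error only (95%, exact Poisson; a count of 0 allows 3 counts). Shares of cells were taken after thinning to 10000 counts, which left out 1 HPC1 cell. No clustering, cell filter or doublet caller was applied. The design text states 324 cells where the joint table holds 322. The deepest 10% of HPC1 cells held 27.0% of its counts.

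Named genes were the 15 highest and 15 lowest by the least favourable of the 5 ratios (counted in 25% of thinned cells), the 5 highest and lowest per comparison, those most correlated with Pf4, the 10 most variable, and members of 19 lists: megakaryocyte-platelet, thrombopoietin signalling, immediate early, MHC class II, interferon response, sorted surface proteins, S phase, lymphoid progenitor, HSC, mature neutrophil, erythroid, mast cell-basophil, cell-cycle inhibitors, G2/M phase, T and NK cell, macrophage-monocyte, granulocyte-monocyte progenitor, mature B cell, endothelial and stromal. Rhd was named after its values were seen, as a member of the erythroid list. Some members of these lists are counted with their list but are not reported here by gene. The members and lists were chosen with earlier results of these data known. Analyses used Python 3.11.15 with numpy, pandas and scipy.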

Additional observations from a re-analysis of the deposited data

How the results depend on the processing

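No paired analysis was possible because each group has 1 library. Counts of genes are given in the order HSC1, double-negative, MPP2-containing, HSC2/MPP4 and CD48- HSC2. With a pseudocount of 1 CPM, 1247, 1353, 1295, 1769 and 1550 genes were higher in HPC1 and 1345, 1115, 908, 1367 and 1808 lower, platelet genes higher numbered 20 against the double-negative and 20 against the MPP2-containing library, and 147 genes were higher and 119 lower than in each library. Among genes counted in 25% of cells, 77, 73, 49, 205 and 197 were higher, 51, 34, 39, 214 and 246 lower, and 6 higher than in each. Per 1000000 counts of the recovered genes, 376, 425 and 356 were higher than in the first 3 libraries, 519, 340 and 191 lower, 867 lower than in CD48- HSC2, and 35 higher and 7 lower than in each. As a difference of mean log2 values over cells, 112, 66 and 34 were higher than in the first 3 libraries and 967 than in CD48- HSC2, 15 and 10 lower than in HSC1 and the double-negative library, 169 and 93 lower than in the HSC2 libraries and 4 lower than in each; the median of all genes against CD48- HSC2 was then 0.16. With the mean of per-cell CPM, 144 and 103 genes were lower than in HSC1 and the double-negative library, 8 platelet genes were higher than in the latter, and 4 genes were lower than in each. Without the deepest 10% of cells, 203 genes were lower than in the MPP2-containing library and 7 than in each. Genes lower than in each numbered 1 without the highest cell of each gene, 1 without the neutrophil-rich and haemoglobin-rich cells and 1 without the 8 HPC1 cells highest in Pf4, an alternative chosen after seeing the data that left 7 platelet genes higher than in the double-negative library. The causes were not tested.

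Some named ratios changed sign. Without the deepest 10% of cells, Chil3 was at log2 -0.95 against the MPP2-containing and -1.57 against the HSC2/MPP4 library, Lcn2 at -1.81 against the former, Ngp at -0.86 against the double-negative and -2.02 against the HSC2/MPP4 library, and F13a1 at 0.10 there (0.04 as mean log2 over cells). Without the highest cell of each gene, Lcn2 was at -0.72 and Rhd at -0.79 against the MPP2-containing library, and Rhd at -0.21 against CD48- HSC2. Without the neutrophil-rich and haemoglobin-rich cells, Rhd was at -0.91 against the MPP2-containing library and at -0.42 against HSC1. In the deposited scores, the mean differences of Dntt were 0.06 (HSC1) and 0.01 (CD48- HSC2) and that of Flt3 was 0.07 (HSC1). Of 487 ratios past 2-fold over all genes eligible for naming, none changed sign under 1 CPM, the mean of per-cell CPM or without the 8 cells, and 12 did without the deepest cells; 188 fell under 2-fold as mean log2 over cells, 101 with the mean of per-cell CPM, 75 without the deepest cells and 58 without the 8 cells.

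Depth limits the low genes: a count of 0 allows 0.261 CPM in HPC1 and 1.08 in CD48- HSC2. With 1 library per group, no interval covers the spread between mice or sorts.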
